A study of Mus musculus with 5 samples.

Results

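The 42 genes described here encode proteins that make ribosomes in the nucleolus, and they were taken from a list of gene symbols looked up in 5 RNA-seq libraries of mouse nuclear transfer embryos at the 4-cell stage. All 42 symbols were found among the 22026 genes of the files. The list holds 4 proteins of the box C/D particles, 4 of the box H/ACA particles, 6 that organise the nucleolus or its transcription, 14 of small subunit assembly and 14 of large subunit assembly. It was not chosen by measured values in the files, but it was chosen with earlier results of these data known.

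In a nuclear transfer embryo an oocyte without its own nucleus receives the nucleus of a donor cell, and here all embryos carried the B6D2F1 strain label. There was 1 library for each of 5 groups. The controls were untreated embryos and embryos labelled luciferase. The histone variant H3.3 was knocked down in the other groups, either alone or together with mRNA for H3.3 (the H3.3 mRNA library) or for H3.2 (the H3.2 mRNA library). H3.3 is laid down in chromatin outside of DNA replication, whereas H3.2 is a replication form of the same histone. The labels of the H3.2 mRNA library disagree, since the treatment tag puts H3.3 mRNA where the title has H3.2. The title was followed, and every value of that library rests on that choice. The source names differ as well: untreated, knockdown and H3.3 mRNA embryos are called NT, while luciferase and H3.2 mRNA embryos are called SCNT. The sources used here do not name the donor cell, the knockdown reagent or how many embryos a library holds.

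Ribosomes are built around ribosomal RNA, which RNA polymerase I copies from repeated genes in the nucleolus. The long precursor is cut, and its bases and sugars are modified by small nucleolar RNAs bound to proteins (snoRNPs), while assembly factors fold it and load ribosomal proteins. A mouse embryo starts out with ribosomes and nucleolar material that the oocyte stored, and builds working nucleoli as its own genes are switched on in the first cell cycles.

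Levels are given in FPKM, a count of fragments scaled to transcript length and to the size of the library, and differences are given as log2(FPKM + 1) in the first library named minus that in the second. A log2 difference of 2 is a 4-fold change. Each group is a single library without replicate error, so no difference was tested and none can be set against the spread between embryos of a group. In its place each count of members is set beside the percentage of all 13144 genes averaging 1 FPKM or more over the 5 libraries that meet the same rule. It is also set beside that of the 6532 genes averaging 50 FPKM or more, since all 42 members lie in that range. The sequencing depth of the libraries is unknown, because the files hold FPKM only. In a bulk library fewer cells and less RNA per cell cannot be told apart.

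Both genes that encode H3.3 were low in the 3 knockdown libraries. H3f3a was 783 FPKM in the untreated and 3503 in the luciferase library, against 128 in the knockdown, 95.5 in the H3.3 mRNA and 129 in the H3.2 mRNA library. H3f3b was 4484 and 2230.4 FPKM in the controls, against 535 in the knockdown, 371 with H3.3 mRNA and 292 in the H3.2 mRNA library. Of 16 early embryo markers, 15 or 16 were above 0 in each library, and their summed level ran from 12090.5 FPKM with H3.2 mRNA to 31189 in the knockdown. Of 15 cumulus cell markers 2 to 5 were above 0, summing to between 332 FPKM in the untreated library and 1076 in the knockdown. Fshr, Lhcgr, Has2 and Amh were at 0 in all libraries. Inha was above 0 in luciferase and the knockdown, and Star and Ptgs2 in both mRNA libraries. Of 15 fibroblast markers 1 to 6 were above 0, summing to 15.5 to 73.4 FPKM, with Col1a1, Col3a1 and Thy1 at 0 in all libraries. Vim and Acta2 were above 0 in both controls, and Col1a2, Pdgfra and Twist1 in luciferase. Of 10 blood markers 2 to 6 were above 0, summing to 117 to 496 FPKM. Ptprc was at 0 in all libraries, while Hba-a1 and Hba-a2 were at 0 only with H3.2 mRNA. Between 10443 (untreated) and 12300 (luciferase) genes were above 0 in a library, with 10496 in the knockdown, 11280 with H3.3 mRNA and 12261 in the H3.2 mRNA library.

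The knockdown library was the lowest of the 5 for 18 of the 42 genes, and the library given H3.3 mRNA was the highest for 20. These shares, 42.9% and 47.6%, compare with 20.4% and 16.7% of all genes past the filter, and with 25.8% and 15% of genes averaging 50 FPKM or more. The pattern ran through the nucleolar organisers nucleolin, Nolc1, treacle, Mybbp1a and Ddx21, and through long assembly factors such as Gnl2, Ftsj3 and Rrp12. Npm1, the remaining organiser, was highest in luciferase and lowest with H3.2 mRNA. The pattern did not run through the whole list. Highest in the knockdown were 7 genes, 16.7%, against 19% and 23.4% in the same backgrounds. Among them were Nhp2, Nop16 and Rrp15, all with short coding sequences. Which way a member differed between the H3.3 mRNA and knockdown libraries followed the length of its coding sequence closely, with a Spearman rho of 0.82 over the 42 genes. The same relation was present among other genes at a similar level, at 0.54.

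**Figure D1:**
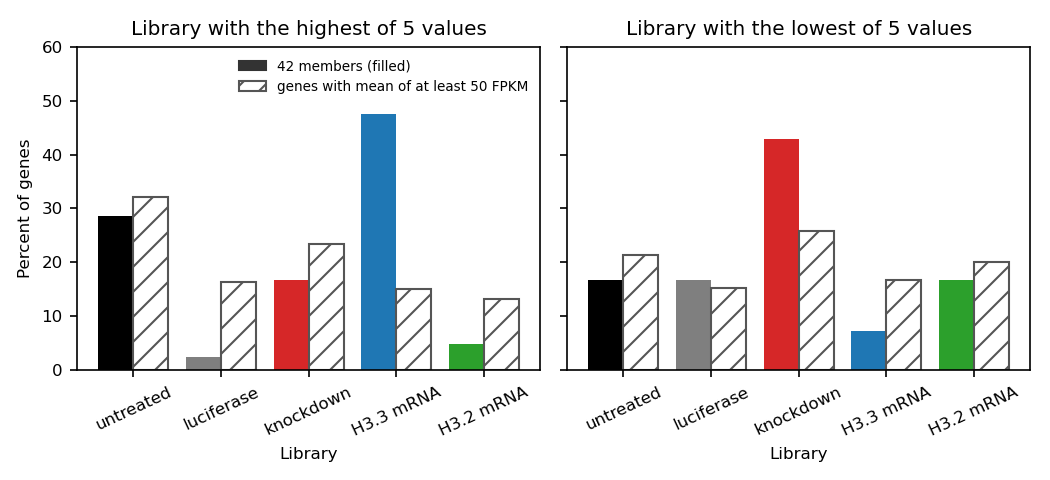
Percent of genes (vertical axis) whose highest value (left) or lowest value (right) of the 5 lies in the library named on the horizontal axis, for the 42 members (filled bars) and for genes averaging 50 FPKM or more (hatched bars). The members stand above the hatched bars for the highest value with H3.3 mRNA, 47.6% against 15%, and for the lowest value in the knockdown, 42.9% against 25.8%.

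Upstream sequence was available for 33 of the 42 genes in RefSeq's promoter table of build GRCm38.p6, which holds 250 bases before to 50 bases after a start site. It was searched on both strands for 4 short motifs. The letters CCGGAAG, a core that ETS factors can bind, were found in 11 members (33.3%), against 19.2% of the 9228 genes past the filter with a promoter and 9.93% of all 27025 genes with a promoter. The letters CACGTG, an E-box that Myc can bind, were found in 6 (18.2%), against 11.9% and 8.09%. CCAAT was found in 14 (42.4%), against 43.2% and 41.1%, and TATAAA in 2 (6.06%), against 9.22% and 15.7%. The 4 stretches below hold the ETS letters upstream of genes that differed in opposite directions between the H3.3 mRNA and knockdown libraries: Nop2 at chr6:125131783-125131868 (plus strand) and Nolc1 at chr19:46075793-46075846 (plus strand) were higher with H3.3 mRNA, by 1.26 and 1.51. Nhp2 at chr11:51619710-51619772 (plus strand) and Gar1 at chr3:129831397-129831479 (minus strand) were lower with H3.3 mRNA, by values of -1.31 and -0.31. Nop2 and Nolc1 have coding sequences of 2382 and 2106 bases, against 459 for Nhp2 and 693 for Gar1. With the trend on coding length over all genes subtracted, Nop2, Nolc1 and Gar1 were above 0 (0.65, 0.99 and 0.38) and Nhp2 below it (-0.31). On that scale the median was 0.19 over all genes past the filter and 0.16 over those averaging 50 FPKM or more. Capitals mark the ETS letters or their reverse complement, and in Nop2 also the E-box, which comes first.
Nop2: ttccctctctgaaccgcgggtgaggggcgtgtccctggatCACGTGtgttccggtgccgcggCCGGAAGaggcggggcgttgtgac
Nolc1: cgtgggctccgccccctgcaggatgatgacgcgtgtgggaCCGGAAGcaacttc
Nhp2: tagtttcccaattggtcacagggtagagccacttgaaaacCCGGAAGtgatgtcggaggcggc
Gar1: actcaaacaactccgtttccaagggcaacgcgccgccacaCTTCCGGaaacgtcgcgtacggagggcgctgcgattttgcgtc
Of the 11 members with the ETS letters, 6 were higher and 5 lower in the H3.3 mRNA library than after knockdown alone, with a median difference of 0.84 against 1.04 in the 22 members without them. Of the 6 with the E-box letters, 4 were higher and 2 lower, with a median of 1.05 against 0.91 without. Of the 14 with CCAAT, 7 were higher and 7 lower, with a median of 0.29 against 1.26 without. These splits take no account of coding length, with which this difference moved. Its median was -0.13 in the 21 members with shorter coding sequences and 1.57 in the 21 with longer ones. The shares of other genes higher or lower with and without each motif are not given here, and a link to a motif was not tested. A match says only that these letters stand in this window.

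All 42 genes were above 0 in all 5 libraries, which held for 64.8% of genes past the filter and for 96.1% of those averaging 50 FPKM or more. The median member stood at 632 FPKM in the untreated, 445 in the luciferase, 369.5 in the knockdown, 736 in the H3.3 mRNA and 459 in the H3.2 mRNA library. The knockdown median was thus the lowest and the H3.3 mRNA median the highest. Summed over the 42 genes, FPKM made up 1.34%, 1.41%, 0.999%, 1.57% and 1.31% of all FPKM in that order. Npm1 alone supplied 36.4% and 39.8% of the members' sum in the controls, 25.3% in the knockdown, 20.5% with H3.3 mRNA and 21% in the H3.2 mRNA library. Without Npm1 the share of all FPKM was 0.849% and 0.851% in the controls and 0.746% in the knockdown, against 1.25% with H3.3 mRNA and 1.03% in the H3.2 mRNA library. The highest level was at least 4-fold over the lowest in 14 of 42 members (33.3%), a smaller share than the 70.5% of genes past the filter and the 49% of genes averaging 50 FPKM or more.

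**Figure D2:**
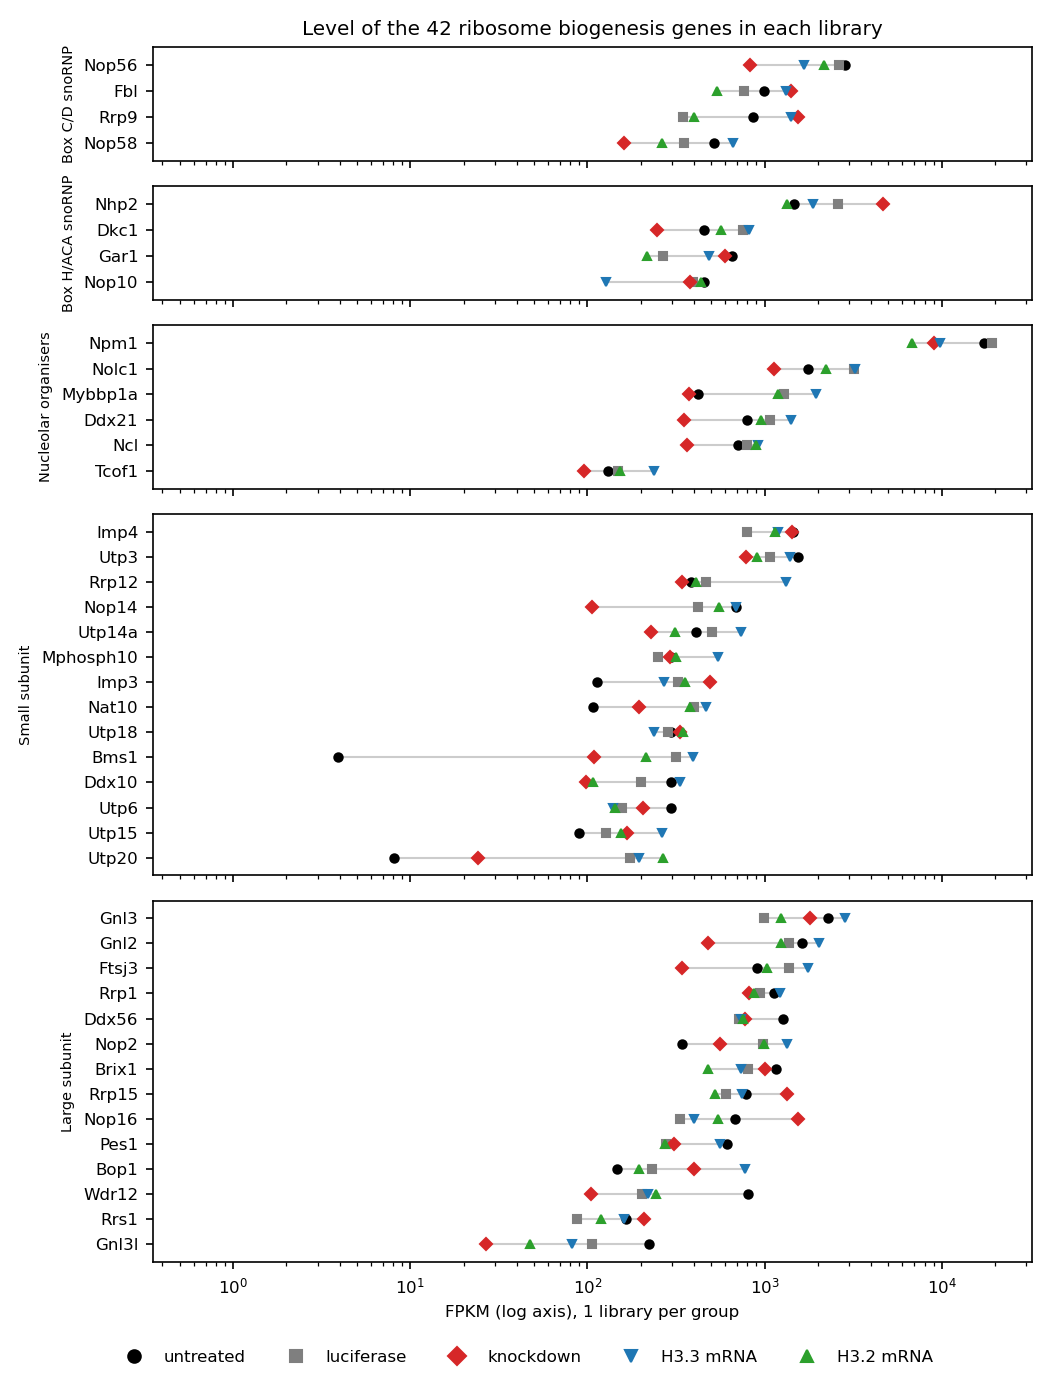
FPKM of each of the 42 genes on a log axis, grouped by role, with 1 symbol for each library (1 library per group, no error bars) and a grey line from the lowest to the highest. Bms1 and Utp20 span the widest ranges, from 3.92 to 394 and from 8.12 to 269 FPKM, and Npm1 is the most abundant in every library.

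In what follows the 5 values of a gene stand in the order untreated, luciferase, knockdown, H3.3 mRNA and H3.2 mRNA.

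The box C/D particles place methyl groups on the sugars of ribosomal RNA, with fibrillarin as the enzyme and Nop56 and Nop58 as its scaffold. Fbl, which encodes fibrillarin, measured 996, 766, 1411, 1318 and 537 FPKM, and was highest in the knockdown. Nop56 measured 2830.2, 2622, 829.6, 1678 and 2160.1 FPKM, and Nop58 measured 516, 349, 162, 664 and 264 FPKM. Both scaffold genes were thus lowest in the knockdown, opposite to the enzyme they hold. The knockdown difference of Nop56 was -1.77 from untreated and -1.66 from luciferase, and that of Nop58 was -1.67 and -1.11. Rrp9, a protein of the snoRNP that guides the first cuts of the small subunit precursor, measured 857, 349, 1546, 1409 and 402 FPKM. It was high in the knockdown and H3.3 mRNA libraries and low in both libraries called SCNT. Per length, Nop56 exceeded Nop58 7.51-fold in the luciferase library and 2.53-fold with H3.3 mRNA, where the levels of the C/D core genes lay closest together.

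The box H/ACA particles turn uridines of ribosomal RNA into pseudouridines, and dyskerin, encoded by Dkc1, is the enzyme. Dkc1 measured 453, 761, 246, 813 and 571 FPKM, lowest in the knockdown and highest with H3.3 mRNA. Its partner Nhp2 showed the opposite order at those libraries, with 1475, 2585, 4692, 1886 and 1342 FPKM. Nhp2 in the knockdown was above the untreated library by 1.67 and above luciferase by 0.86. Gar1, a partner needed for the reaction itself, measured 652, 268, 599, 484 and 216 FPKM, and was low in both libraries called SCNT. Nop10, the smallest core protein, measured 452, 394, 379.8, 127 and 436 FPKM and stood apart only by its low value with H3.3 mRNA, a difference of -1.58 from the knockdown and -1.78 from H3.2 mRNA. The 4 proteins act in 1 complex, yet the ratio of the highest to the lowest of their genes was 3.26 in the untreated, 9.63 in the luciferase, 19.1 in the knockdown, 14.9 in the H3.3 mRNA and 6.2 in the H3.2 mRNA library.

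The 6 genes for nucleolar organisers and for factors of ribosomal RNA transcription were all lower in the knockdown than in either control, except that Mybbp1a came to between 0.013 and 0.12 above untreated under 3 other scalings of the libraries, and all 6 were higher in the H3.3 mRNA library than after knockdown alone. Nucleolin (Ncl), which binds precursor RNA and ribosomal genes, measured 713, 796, 366, 919 and 891 FPKM. Nolc1, a chaperone of snoRNPs, measured 1749, 3181, 1135, 3242 and 2212 FPKM. Tcof1, which encodes treacle, a factor of RNA polymerase I transcription, measured 131, 149.8, 95.2, 236 and 153 FPKM. In each of these the knockdown was the lowest library and H3.3 mRNA the highest. Mybbp1a, a nucleolar protein that binds Myb and RNA polymerase I, measured 422, 1295, 373, 1944 and 1197 FPKM, so that the untreated and knockdown libraries were both low. Ddx21, an RNA helicase that links RNA polymerase I transcription to processing, measured 797, 1069, 351, 1403 and 953 FPKM. Its H3.3 mRNA level was about 4-fold its knockdown level, on the threshold, and the added 1 FPKM alone keeps it from being counted as 4-fold higher. Nucleophosmin (Npm1), a histone chaperone and scaffold of the outer nucleolus, measured 17305, 19230.3, 9041, 9801 and 6774 FPKM. Unlike the other 5, it was hardly higher in the H3.3 mRNA library than after knockdown alone, by 0.12, and it was lowest with H3.2 mRNA. Npm1 has many near-identical pseudogene copies, and how reads shared with them were counted is not stated in the labels.

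The small subunit is shaped by the processome, a large particle that forms on the precursor RNA. Its members Bms1 and Utp20 had the widest ranges of the 42 genes. Bms1, a GTPase, measured 3.92, 318, 109, 394 and 216 FPKM, and Utp20, a long scaffold protein, measured 8.12, 175, 24, 195 and 269 FPKM. Both were near the bottom of the scale in the untreated library, so the knockdown was above one control and below the other. For Bms1 the knockdown difference was 4.48 against untreated and -1.54 against luciferase, and for Utp20 it was 1.46 and -2.81. Nat10, an acetyltransferase of ribosomal RNA, had the same order at the controls, with 107, 400.0, 195, 470.1 and 380.2 FPKM. Nop14, a processome protein, measured 690.0, 423, 106, 687 and 553 FPKM. It was the member whose knockdown value stood out most from all 4 other libraries, at -2.69 from the untreated and -1.99 from the luciferase library, while H3.3 mRNA and H3.2 mRNA stood 2.69 and 2.37 above it.

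Other processome genes split. Ddx10, an RNA helicase, measured 297, 199.8, 97.9, 334 and 108 FPKM, and was low in the knockdown and H3.2 mRNA libraries alike. Utp14a, which activates a processome helicase, measured 410.1, 506, 228, 734 and 313 FPKM. Rrp12, which takes part in the export of subunits, measured 386, 467, 343, 1320.0 and 411 FPKM. For both of these H3.3 mRNA was the highest library, and for Rrp12 the other 4 values lay close together. Utp3 measured 1551, 1067, 782, 1399.9 and 912 FPKM, and Utp15, which also supports transcription of the precursor, measured 89.8, 127, 168, 265 and 155 FPKM. Utp6 measured 296, 157, 205, 139 and 144 FPKM, and Utp18 measured 296, 286, 334, 239 and 346 FPKM. Utp18 varied least of the 42 genes, 1.45-fold from lowest to highest, and Utp6 and Utp18 were lowest with H3.3 mRNA.

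Imp3, Imp4 and Mphosph10 form a complex that joins the guide RNA to the precursor. Imp3 measured 114, 325, 494, 269.5 and 358 FPKM, Imp4 measured 1447, 795, 1431, 1188 and 1140.2 FPKM, and Mphosph10 measured 296, 249.7, 292, 549.7 and 315 FPKM. The 3 genes had different orders across the libraries: Imp3 was highest in the knockdown, Imp4 in the untreated and Mphosph10 in the H3.3 mRNA library. Their highest-to-lowest ratio was 12.8 in the untreated library and between 3.18 and 4.9 in the others.

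Among large subunit factors, Pes1, Bop1 and Wdr12 form the PeBoW complex, which is needed to process the large subunit precursor. Pes1 measured 613, 279, 309.8, 557 and 275 FPKM, Bop1 measured 147, 230.2, 400.2, 775 and 197 FPKM, and Wdr12 measured 812, 203, 104, 219.5 and 243 FPKM. As in the H/ACA core, partners of a single complex did not share an order. Wdr12 was high in the untreated library alone, at a knockdown difference of -2.95 and with a luciferase level about 4-fold lower, kept from the 4-fold count by the added 1 FPKM alone, whereas Bop1 was lowest there and highest with H3.3 mRNA. The ratio of the highest to the lowest of the 3 was 5.51, 1.38, 3.83, 3.53 and 1.4, smallest in both libraries called SCNT.

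The nucleolar GTPases Gnl2, Gnl3 and Gnl3l, of which Gnl3 is known as nucleostemin, take part in the maturation of the large subunit. Gnl2 measured 1637, 1366, 478, 2025 and 1245 FPKM, Gnl3 measured 2283, 994, 1807, 2835 and 1241 FPKM, and Gnl3l measured 224, 106, 26.8, 81.7 and 47.2 FPKM. Gnl2 and Gnl3l were lowest in the knockdown and Gnl3 in luciferase. The knockdown difference of Gnl3l was -3.02 from untreated, the lowest of the 42 genes, and -1.95 from luciferase. Ftsj3, an RNA methyltransferase, measured 902, 1379, 342, 1756 and 1038 FPKM, with knockdown differences of -1.40 from untreated and -2.01 from luciferase. Nop2, a cytosine methyltransferase of the large ribosomal RNA, measured 344, 975, 559, 1340.1 and 989 FPKM, with the lowest value in the untreated library. Both methyltransferases were highest with H3.3 mRNA.

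A set of smaller assembly factors went the other way or varied little. Nop16 measured 683, 334, 1546, 402 and 545 FPKM, 1.18 above the untreated and 2.21 above the luciferase library in the knockdown. Rrp15 measured 786, 606, 1335, 742 and 522 FPKM, and Rrs1, which helps place the smallest ribosomal RNA in the large subunit, measured 166, 87.6, 209, 160.3 and 119 FPKM. All 3 were highest in the knockdown. Brix1 measured 1154, 812, 1006, 733 and 481 FPKM, and Ddx56, an RNA helicase, measured 1269, 714, 775, 739 and 760.5 FPKM. Rrp1 measured 1126, 939.8, 813, 1228 and 870.2 FPKM, a range of 1.51-fold.

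Set against each control in turn, the knockdown was lower than both for 20 of the 42 genes (47.6%; 29.8% of all genes past the filter and 35.5% of those averaging 50 FPKM or more) and higher than both for 10 (23.8%; 26.8% and 30.2%). At least 2-fold lower than both were 8 members, Nop56, Nop58, Ddx21, Nop14, Ddx10, Ftsj3, Gnl2 and Gnl3l. Their share of 19% compares with 14.3% and 12.8% in the 2 background sets. Nop16 alone was at least 2-fold higher than both (11.3% and 8.48%). No member was 4-fold from both controls in either direction, where 4.98% and 1.79% of background genes were higher and 6.35% and 3.97% lower.

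The members 4-fold from the untreated and from the luciferase library were not the same genes. Against the untreated library the knockdown had 14 members higher (33.3%; 40.9% and 44.5% in the backgrounds) and 28 lower (66.7%; 46.6% and 55.3%), with a median of -0.29 (0.0035 after upper-quartile scaling), while the median was 0 over all genes past the filter and -0.18 over those averaging 50 FPKM or more. At least 4-fold higher were Imp3 and Bms1 (16.8% and 10.3% in the backgrounds), and at least 4-fold lower were Nop14, Wdr12 and Gnl3l (15.6% and 11%). At 2-fold the counts were 6 higher (25.6% and 21.4%) and 9 lower (29.2% and 28.2%), shares of 14.3% and 21.4% of members. Against luciferase, an SCNT library where the knockdown is an NT library, 18 were higher (42.9%; 41% and 49.8%) and 24 lower (57.1%; 52.6% and 50%), with a median of -0.45 (-0.24 with the trend on coding length removed) and background medians of -0.12 and 0 to 2 decimals. At least 4-fold higher were Rrp9 and Nop16 (9.74% and 6.95%), and at least 4-fold lower were Utp20 and Ftsj3 (18.9% and 8.44%). Nop14, at -1.99 against luciferase, was just under 4-fold. At least 2-fold below luciferase were 17 members (40.5%; 32.6% and 23.4%), and at least 2-fold above it were 5 (11.9%; 21.5% and 21.8%). Luciferase against untreated had 18 members higher (50.4% and 45.6%) and 24 lower (43.8% and 54.3%), with a median of -0.22 (0.42 after upper-quartile scaling). Here Utp20 (4.27) and Bms1 (6.02) were at least 4-fold higher (23.5% and 11%) and no member at least 4-fold lower (13.4% and 10.6%), with 6 at least 2-fold higher (34.2% and 22.1%) and 7 at least 2-fold lower (25.8% and 27%).

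Of the 8 pairs of libraries, the members' median in FPKM as deposited was farthest from that of the other genes between the H3.3 mRNA and knockdown libraries, a rank that did not hold once the trend on coding length was removed. Here 28 members were higher with H3.3 mRNA (66.7%; 48.9% and 49.8%) and 14 lower (33.3%; 41.1% and 49.9%), and the median was 0.93 where both background medians were 0. At least 2-fold higher were 20 members (47.6%; 29.4% and 22.9%) and at least 2-fold lower were Nhp2, Nop10 and Nop16 (7.14%; 21.7% and 22.4%). At least 4-fold higher were Utp20 (2.97), Nop14 (2.69), Mybbp1a (2.38), Ftsj3 (2.36), Gnl2 (2.08) and Nop58 (2.03), 14.3% of members against 16.4% and 7.27%, and none was at least 4-fold lower (10.1% and 6.54%). The knockdown library enters this comparison and those with the controls, so its own deviations count in all of them.

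With H3.2 mRNA 25 members were higher (59.5%; 53% and 48.2%) and 17 lower (40.5%; 40.1% and 51.6%) than in the knockdown, and the median of 0.17 lay near the 0.15 of all genes past the filter (-0.06 for those averaging 50 FPKM or more). Utp20 (3.43) and Nop14 (2.37) were at least 4-fold higher (19.5% and 7.01%) and none at least 4-fold lower (9.11% and 7.55%). At least 2-fold higher were 10 members (23.8%; 33.5% and 22.2%) and at least 2-fold lower were 8 (19%; 21.4% and 24.8%), the latter led by Rrp9 (-1.94), Nhp2 (-1.80) and Nop16 (-1.50).

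Comparing both mRNA libraries directly, 33 members (78.6%) were higher with H3.3 mRNA than with H3.2 mRNA, against 44.4% and 52.1% of background genes, and 9 were lower (21.4%; 49.8% and 47.6%). The median difference was 0.55, with background medians of 0 and 0.05. No member reached 4-fold in either direction (8.38% and 3.78% higher; 12.6% and 3.37% lower). Bop1 (1.97), Rrp9 (1.81), Rrp12 (1.68), Ddx10 (1.62), Nop58 (1.33) and Fbl (1.29) were the farthest above 0, and 10 members were at least 2-fold higher (23.8%; 18.9% and 15.8%). Nop10 was the only member at least 2-fold lower (2.38%; 24.2% and 13.4%). These 2 libraries have different source names, NT and SCNT, which cannot be told apart from the mRNA given. The same holds for knockdown minus luciferase, luciferase minus untreated and H3.2 mRNA minus knockdown, each of which sets an NT against an SCNT library.

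**Figure D3:**
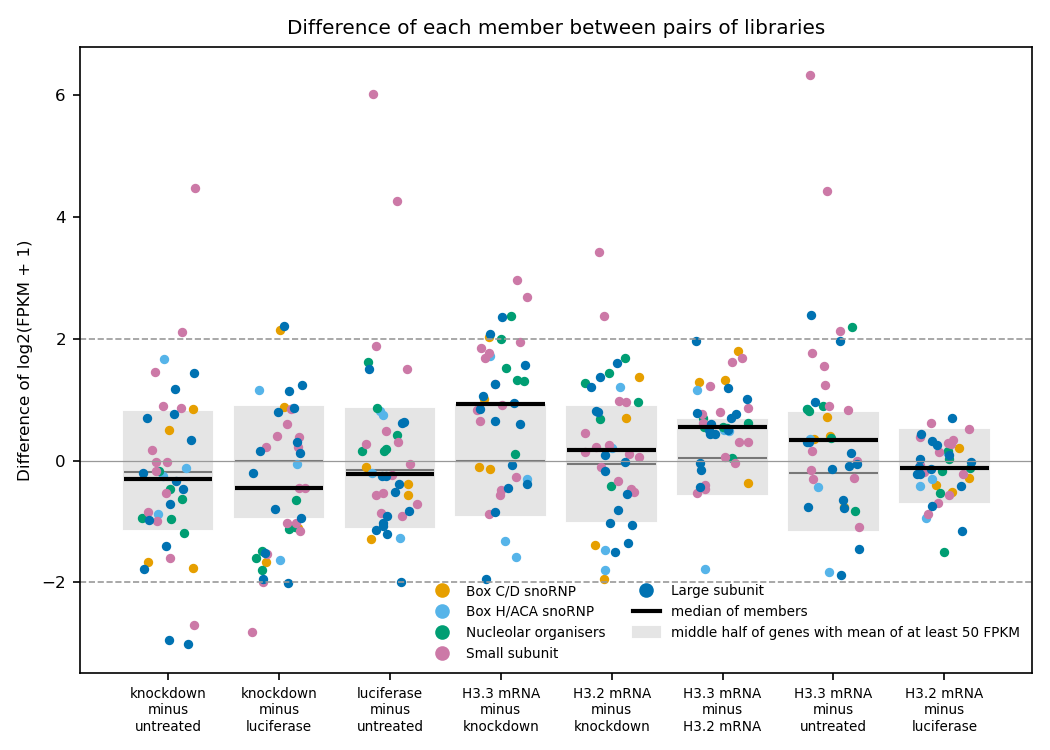
Difference of log2(FPKM + 1) (vertical axis) of each of the 42 genes in 8 pairs of libraries, coloured by role, with the members' median (black bar) and, for genes averaging 50 FPKM or more, the middle 50% (grey box) and the median (thin line). Dashed lines mark 4-fold, and the members' median stands highest for H3.3 mRNA minus knockdown, at 0.93.

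A pair of libraries could also be compared within each source name. In the NT libraries 25 members were higher (59.5%; 46% and 44.2%) and 17 lower (40.5%; 44.5% and 55.6%) with H3.3 mRNA than in the untreated embryos. The median was 0.33, with background medians of 0 and -0.20 (0.06, against -0.01 and -0.21, with the trend on coding length removed). Bms1 (6.33), Utp20 (4.42), Bop1 (2.39), Mybbp1a (2.20) and Nat10 (2.12) were at least 4-fold higher (11.9%; 20.6% and 10.5%) and none was at least 4-fold lower (13.8% and 11%). At least 2-fold higher were 9 (21.4%; 30.2% and 21.2%) and at least 2-fold lower were 4 (9.52%; 26.3% and 28.1%). In the SCNT libraries the members of the H3.2 mRNA and luciferase libraries lay close together, with 17 higher (48.3% and 45%), 25 lower (47.9% and 54.8%) and a median of -0.12 (0 and -0.11 in the backgrounds; 0.26 for the members after quantile normalization). None was 4-fold apart (10.4% and 3.05% higher; 9.84% and 3.84% lower), none at least 2-fold higher (22.4% and 12.2%), and only Npm1 (-1.51) and Gnl3l (-1.15) at least 2-fold lower (4.76%; 20.5% and 15.9%).

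The length of the coding sequence moved with these differences. For H3.3 mRNA minus knockdown Spearman's rho between a member's difference and its coding length was 0.82 over the 42 genes, against 0.54 over 6325 genes averaging 50 FPKM or more. For knockdown minus luciferase it was -0.65 against -0.43, and for H3.2 mRNA minus knockdown 0.69 against 0.56. For H3.3 mRNA minus H3.2 mRNA it was 0.24 against -0.05, and for knockdown minus untreated -0.17 against -0.22. It was 0.59 against 0.24 for H3.3 mRNA minus untreated, and 0.44 against 0.15 for luciferase minus untreated. For H3.2 mRNA minus luciferase it was -0.02 against 0.20. These are descriptions across genes that share the same libraries. Of the 21 members with coding sequences of 192 to 1656 bases, 8 were higher and 13 lower in the H3.3 mRNA library than after knockdown alone, with a median of -0.13. Of the 4383 genes averaging 50 FPKM or more in that range of length, 37.3% were higher, against 38.1% of these members, and their median was -0.38. Of the 21 with 1731 to 8367 bases, 20 were higher, 17 of them at least 2-fold, with a median of 1.57, and Utp6 was the exception. Of the 1775 genes of that range, 80.9% were higher, against 95.2% of these members, 46.4% at least 2-fold, against 81%, and their median was 0.92. The longer group held 15 of the 20 members that were highest with H3.3 mRNA and 13 of the 18 that were lowest in the knockdown, while all 7 members highest in the knockdown were in the shorter group. In the longer range 71.4% of members and 25.2% of genes averaging 50 FPKM or more were highest with H3.3 mRNA, and 61.9% and 48.7% were lowest in the knockdown. In the shorter range the shares were 23.8% and 10.8% for the highest with H3.3 mRNA, 23.8% and 17% for the lowest in the knockdown, and 33.3% and 30.4% for the highest in the knockdown. Within the H/ACA complex the enzyme Dkc1 (1527 bases) differed by 1.72 between the H3.3 mRNA and knockdown libraries, and Nhp2 (459 bases) and Nop10 (192 bases) by -1.31 and -1.58.

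**Figure D4:**
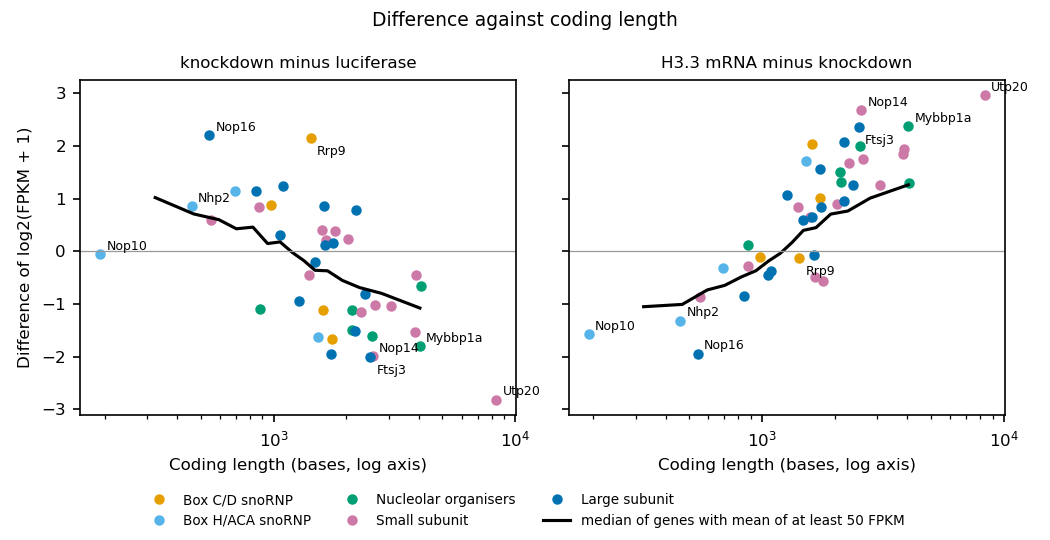
Difference of log2(FPKM + 1) (vertical axis) against coding length in bases (log axis) for the 42 genes, coloured by role, with the median of genes averaging 50 FPKM or more in bins of coding length (black line), for knockdown minus luciferase (left) and H3.3 mRNA minus knockdown (right). Members follow the slope of the line in both panels, with rho of -0.65 and 0.82, and most of the longer members lie above the line on the right.

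When the trend on coding length over all genes was subtracted, the members' median for H3.3 mRNA minus knockdown was 0.52, with 32 above 0 and 10 below, where genes averaging 50 FPKM or more had a median of 0.16. The members at least 2-fold higher numbered 14 rather than 20, and those at least 4-fold higher 1, Nop14 at 2.03, rather than 6. On this scale 14.2% of the 12567 genes past the filter with a coding length were at least 4-fold higher. The shares of all genes above 0 or at least 2-fold higher on it are not given here. Nop58 and Utp20 stood at 1.82 and Ftsj3 at 1.72 on this scale, and Nop16 (-1.05), Utp6 (-0.90) and Utp18 (-0.73) were the lowest. Nhp2 and Nop10 came to -0.31 and -0.27, below the median of 0.19 over all genes past the filter on this scale. Of the 8 members at least 2-fold below both controls in the knockdown, Nop56, Nop14, Ftsj3, Gnl2 and Gnl3l remained so on this scale. Nop58, Ddx21 and Ddx10 did not, and Nop10, Npm1 and Wdr12 met the rule only on this scale. The share of all genes that meet it on this scale is not given here. For knockdown minus untreated the median of all genes past the filter was -0.15 on this scale. For knockdown minus luciferase the members' median was -0.24 on this scale, between the -0.28 of all genes past the filter and the -0.17 of genes averaging 50 FPKM or more. For H3.3 mRNA minus H3.2 mRNA it was 0.56 against -0.07 and 0.0034, so that here this pair, not H3.3 mRNA minus knockdown, set the members farthest from genes averaging 50 FPKM or more. What makes differences in these libraries follow length was not tested.

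A further 95 genes of ribosome biogenesis were listed, of which 93 were found and passed the filter: RNA polymerase I and its factors, other subunit assembly factors, the exosome and regulators. In the H3.3 mRNA library 62 were higher and 31 lower than after knockdown alone, with a median of 0.47, against 0.93 for the 42 genes. The 62 are 66.7% of the 93, against 48.9% and 49.8% in the backgrounds. By group, 23 of 30 large subunit factors (median 0.49), 16 of 21 small subunit factors (0.79) and 10 of 14 polymerase I genes (0.84) were higher. Exosome genes split into 6 higher and 8 lower (-0.09), and regulators into 7 and 7 (0.01). The 93 genes were not set beside other genes of similar coding length. In the knockdown 53 were lower than untreated (57%, median -0.21), close to the 55.3% and -0.18 of genes averaging 50 FPKM or more, and 58 were lower than luciferase (62.4%, median -0.27; 52.6% and 50% in the backgrounds). Polr1a, the largest subunit of RNA polymerase I, measured 92.8, 130.1, 9.52, 195 and 114 FPKM, and Cd3eap, another polymerase I subunit, measured 219 and 123 in the controls, 24.4 in the knockdown, and 169.6 and 108 with H3.3 and H3.2 mRNA. Both, and no other of the 93 genes, were at least 4-fold below each control in the knockdown, which no member was. In the backgrounds 6.35% and 3.97% of genes met this rule. Polr1a and Cd3eap were lower there than in any other library. The 14 genes of RNA polymerase I and its factors split in the knockdown, 6 higher and 8 lower than untreated, and 3 higher and 11 lower than luciferase. The subunit genes Polr1d (3703, 3876, 7537, 4386 and 2870 FPKM), Znrd1 (497, 525, 1184, 538 and 392) and Polr1e (441, 358, 480, 225 and 263) were highest there. Polr1a was 4.22 higher in the H3.3 mRNA library than after knockdown alone. Mdn1, a very large factor that strips proteins from the large subunit, measured 2.56, 114, 23.9, 119 and 115 FPKM, with the low untreated value also seen for Utp20 and Bms1. Heatr1, a long processome protein, measured 63.8, 465, 108, 351 and 459 FPKM, low in the same 2 libraries. Myc, a transcription factor that drives many ribosome biogenesis genes, measured 175, 69.8, 74, 51.4 and 9.93 FPKM. It was highest in the untreated and lowest in the H3.2 mRNA library. Mycn was listed at 0 in the untreated and knockdown libraries and measured 13.5, 19.9 and 16.6 FPKM in luciferase, H3.3 mRNA and H3.2 mRNA.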

How the data were processed

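RNA-seq was measured in 5 libraries, 1 per group, from total RNA made into TruSeq libraries of single reads, per the labels' protocols. The authors deposited 1 table of FPKM per library with gene symbols. TopHat, Cufflinks and build mm9 are named by the submitters' processing notes, without versions. The annotation, filters and the handling of reads shared between genes are not given in the sources used here. FPKM were used as deposited and compared as log2(FPKM + 1) over 13144 of 22026 genes averaging 1 FPKM or more. No test was possible with 1 library per group. A 4-fold difference was used to name members, with 2-fold as a smaller threshold. All members are given; for each comparison up to 6 with the largest difference in each direction are named. The members, lists, thresholds and the set averaging 50 FPKM or more were chosen with earlier results of these data known. Length came from GENCODE, as the longest coding sequence per symbol (42 members, 95.6% of genes past the filter). The trend on length was a lowess fit (fraction 0.3). Promoters, matched by symbol, came from RefSeq. In all 9 other settings were chosen at the start and 2 were added after seeing the data, with 2 comparisons added likewise. Scripts were tested on simulated data. Python 3.11.15, numpy 2.4.6, pandas 2.3.3, scipy 1.17.1, statsmodels 0.14.6 and matplotlib 3.10.9 were used.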

Additional observations from a re-analysis of the deposited data

How the results depend on the processing

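With 1 library per group, no replicate could be left out and nothing here measures the error between embryos. No paired analysis was possible because each group has 1 library. FPKM without counts give no depth, so a low value such as Bms1 at 3.92 FPKM has no counting interval. The other settings were pseudocounts of 0.1 and 10 FPKM, no filter, a mean of at least 10 FPKM, only genes above 0 throughout, quantile normalization, upper-quartile scaling, median-of-ratios scaling and removal of the trend on transcript length; the trend of genes averaging 50 FPKM or more and that on coding length were added. Libraries could not be ranked after a length trend was removed. Under the alternatives 358 medians and counts kept their direction and stayed within 1.5-fold, 49 moved further and 3 changed sign. Within that range were all counts of members highest with H3.3 mRNA or lowest in the knockdown, in the settings that could rank libraries, and the 3 filters moved none.

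The members' median for knockdown minus untreated was 0.0035 and that for luciferase minus untreated 0.42 under upper-quartile scaling, and that for H3.2 mRNA minus luciferase was 0.26 under quantile normalization, each with the opposite sign to the value as deposited; the cause was not tested. Under upper-quartile scaling the median of all genes for luciferase minus untreated stood at 0.65, where it was 0.02 as deposited.

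Counts of members moved as follows, and the cause was not tested. At least 4-fold lower, a pseudocount of 0.1 FPKM gave 1 member for luciferase minus untreated, and a pseudocount of 10 FPKM gave 1 for knockdown minus luciferase. Quantile normalization gave 0 at least 4-fold higher for knockdown minus luciferase, 5 for H3.2 mRNA minus knockdown and 1 at least 4-fold lower for H3.3 mRNA minus H3.2 mRNA, with 6 members highest and 12 lowest in the untreated library, 0 highest in luciferase, and 6 highest and 4 lowest with H3.2 mRNA. Upper-quartile scaling gave 0 at least 4-fold higher and 6 lower for knockdown minus luciferase, 6 higher for luciferase minus untreated, 8 higher for H3.3 mRNA minus untreated, 2 at least 4-fold lower and 2 at least 2-fold higher in the knockdown than both controls, 4 highest and 13 lowest in untreated, 5 highest in luciferase, and 5 highest and 4 lowest with H3.2 mRNA. Median-of-ratios scaling gave 1 at least 4-fold lower for knockdown minus luciferase and for each mRNA library minus knockdown, 2 at least 2-fold higher in the knockdown than both controls, 7 highest in untreated and 2 highest in luciferase. Both trends on transcript length gave, at 4-fold, 1 higher for knockdown minus untreated, 0 higher for knockdown minus luciferase, 1 lower for luciferase minus untreated, for H3.3 mRNA minus H3.2 mRNA, for H3.3 mRNA minus untreated and for the knockdown below both controls, and 0 at least 2-fold above both. The trend of genes averaging 50 FPKM or more also gave 1 lower for knockdown minus luciferase. The trend on coding length gave, at 4-fold, 1 higher for knockdown minus untreated, 1 higher and 0 lower for knockdown minus luciferase, 1 higher for H3.3 mRNA minus knockdown, 1 lower for H3.2 mRNA minus knockdown and for H3.3 mRNA minus H3.2 mRNA, and 2 higher for H3.3 mRNA minus untreated.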

Other observations

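Small nucleolar RNAs are often made from introns of the very genes that process ribosomal RNA, and 8 of the 105 snoRNA genes in the files lie inside 4 members by the RefSeq annotation: Snord70 and Snord11 in Nop58, Snora75 and Snord82 in Ncl, Snord110 and Snord57 in Nop56, and Snord69 and Snord19 in Gnl3. All 8 were listed at 0 in all 5 libraries, while the host genes ranged from 162 FPKM (Nop58 in the knockdown) to 2835 (Gnl3 with H3.3 mRNA). Of the 105 snoRNA genes, 31 were above 0 in any library.

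Among the other genes of ribosome biogenesis, Shq1, an assembly factor of box H/ACA particles, was listed at 0 in the untreated library and measured 58.6, 51.7, 29.5 and 66.6 FPKM in the luciferase, knockdown, H3.3 mRNA and H3.2 mRNA libraries. Naf1, another such factor, measured 50.4 FPKM in the untreated library, 10.9 in luciferase, 17.4 in the knockdown, 36 with H3.3 mRNA and 7.81 in the H3.2 mRNA library, so it was low in both libraries called SCNT, as Gar1 was. Nol10 was highest in the untreated library, at 536 FPKM, and lowest in the knockdown, at 48.9.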
